A study of Mus musculus with 12 samples.

Results

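The collagen gene family was followed through 6 days of differentiation of mouse embryonic stem cells with and without Notch1, a receptor for signals between neighbouring cells. The 40 genes were taken by name, 11 fibrillar, 6 of basement membranes, 9 of the fibril-associated class (FACIT) and 14 others, and were found among 40039 loci of the deposited transcript models. The basement membrane class holds the type IV chains only. All 40 passed the filter on low counts. For 37 of them the locus held a single gene. Col11a2, Col20a1 and Col23a1 lay in loci merged with the neighbouring genes Rxrb, Arfgap1 and Phykpl, so their reads could not be told apart from those of the neighbour and they are left out of all counts of expression below. Gene names were inferred from exon and intron lengths and not read from identifiers.

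Poly(A) RNA was sequenced from 12 libraries of C57BL/6J embryonic stem cells, 3 in each of 4 groups: WT cells at day 0, WT cells at day 6, Notch1-/- cells at day 0 and Notch1-/- cells at day 6. At day 0 the cells were undifferentiated, and all had been kept with 1000 U/ml of LIF, a factor that holds stem cells undifferentiated, on mouse embryonic fibroblasts as a feeder layer or on gelatin. The labels do not say which libraries came from feeders, how Notch1 was deleted or how many lines each genotype had. At day 6 the cells were embryoid bodies, aggregates grown from hanging drops of 1000 cells under conditions for cardiac differentiation. The series design calls the 3 libraries of a group biological replicates. The labels do not say whether they were separate cultures, so p-values measure the spread between these libraries, which may be technical.

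Collagens are proteins of the extracellular matrix in which 3 chains wind into a triple helix. Fibrillar collagens form the banded fibrils of connective tissue, type IV collagens form the sheet on which epithelia, endothelia and muscle rest, and FACIT collagens sit on the surface of fibrils. Remaining types form beaded filaments, hexagonal nets and anchoring fibrils, or cross the cell membrane. Parietal endoderm, an early layer outside the embryo proper, is a rich source of type IV collagen, and fibroblasts are rich sources of types I, III, V and VI.

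The libraries held from 100637179 to 134662426 counts over all loci. Notch1 itself had 61.6, 24.7 and 34.0 CPM (counts per 1000000 of the scaled library) in WT libraries 1, 2 and 3 before differentiation and 38.0, 30.8 and 31.1 CPM at day 6. The Notch1-/- libraries held 3.80, 3.87 and 4.59 CPM before and 6.80, 4.90 and 4.95 CPM after the 6 days, below every WT library. A list of 15 tested feeder fibroblast markers, which holds no collagen, varied widely at day 0. Its summed level was 325 to 993 CPM in WT and 257 to 990 CPM in Notch1-/- libraries at day 0, 565 to 638 CPM in WT and 171 to 177 CPM in Notch1-/- embryoid bodies. None of the 15 markers was at 0 in all libraries of any group, and 1, 5, 2 and 6 of them had a mean under 1 CPM in WT day 0, WT day 6, Notch1-/- day 0 and Notch1-/- day 6. In these bulk libraries fewer cells of a type and less RNA per cell cannot be told apart. The mean log2 CPM of 9 embryonic stem cell markers was 5.12 to 5.69 at day 0 and 3.61 to 4.36 at day 6.

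The promoter sequences of 4 collagen genes with large changes are shown, because these windows lie outside annotated exons. Col3a1 and Col5a3 are fibrillar, Col4a6 belongs to basement membranes and Col8a1 to the other collagens. They are the 250 bases before the RefSeq start, on build GRCm38.p6 and 5′ to 3′ on the gene's strand. Capitals mark 3 motifs on either strand: the CAAT box as CCAAT, the GC box as GGGCGG and the TATA box as TATAAA.
Col3a1 (chr1:45311288-45311537, plus strand): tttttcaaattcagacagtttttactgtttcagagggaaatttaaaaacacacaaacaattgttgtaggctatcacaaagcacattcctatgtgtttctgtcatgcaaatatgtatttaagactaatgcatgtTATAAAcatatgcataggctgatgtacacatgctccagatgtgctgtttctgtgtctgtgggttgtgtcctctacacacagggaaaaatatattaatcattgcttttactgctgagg
Col5a3 (chr9:20815068-20815317, minus strand): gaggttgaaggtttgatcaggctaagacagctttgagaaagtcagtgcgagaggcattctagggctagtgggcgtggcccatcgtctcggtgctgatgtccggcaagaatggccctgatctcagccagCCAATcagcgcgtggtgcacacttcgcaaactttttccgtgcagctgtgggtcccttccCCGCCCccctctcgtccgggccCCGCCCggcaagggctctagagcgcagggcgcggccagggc
Col4a6 (chrX:141474077-141474326, minus strand): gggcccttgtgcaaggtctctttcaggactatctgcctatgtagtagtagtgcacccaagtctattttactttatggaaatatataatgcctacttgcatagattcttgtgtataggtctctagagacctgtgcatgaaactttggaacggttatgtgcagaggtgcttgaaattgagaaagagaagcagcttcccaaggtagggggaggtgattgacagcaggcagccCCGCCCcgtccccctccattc
Col8a1 (chr16:57754738-57754987, minus strand): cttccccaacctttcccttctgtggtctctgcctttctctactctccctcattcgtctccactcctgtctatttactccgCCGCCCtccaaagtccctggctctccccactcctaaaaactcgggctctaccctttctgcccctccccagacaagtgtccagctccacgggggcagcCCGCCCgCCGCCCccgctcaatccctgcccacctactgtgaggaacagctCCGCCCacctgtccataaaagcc

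Col3a1, an AT-rich window with a GC content of 35.2%, held TATAAA 117 bases before the start and neither of the other motifs. Col5a3 held CCAAT and 2 copies of GGGCGG, Col8a1 held 4 copies of GGGCGG, and Col4a6 held 1 copy, 21 bases before its start. Across 34 windows of 31 matched collagen genes, which include Col11a2, Col20a1 and Col23a1, 19 held GGGCGG, 12 held CCAAT and 5 held TATAAA. Among all 32817 promoter windows of this length 32.7%, 33.8% and 12.4% held them. A match describes the letters only. Col4a6 and Col4a5 stand head to head on chromosome X, with 1342 bases between their starts.

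Collagen levels are first set side by side within each group, in FPKM, which is scaled by transcript length. Col18a1 was left out of this because its counts and FPKM disagreed, which leaves 36 genes. Its deposited FPKM averaged 84.8 in WT day 0, 55.5 in WT day 6, 69.9 in Notch1-/- day 0 and 45.0 in Notch1-/- day 6. These lie above the highest of the 36 genes in every group but WT day 6. The FPKM sums, shares and rankings below thus depend on leaving it out, while its counts were kept in the tests. Summed collagen FPKM was 251, 120 and 432 in the WT libraries at day 0 and 292, 286 and 242 at day 6. Summed FPKM in Notch1-/- libraries was 67.2, 119 and 168 before and 58.2, 46.5 and 55.5 after differentiation. These last 3 libraries lay below every other library, while the 3 WT libraries at day 0 spanned a wider range than all WT day 6 libraries.

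**Figure D1:**
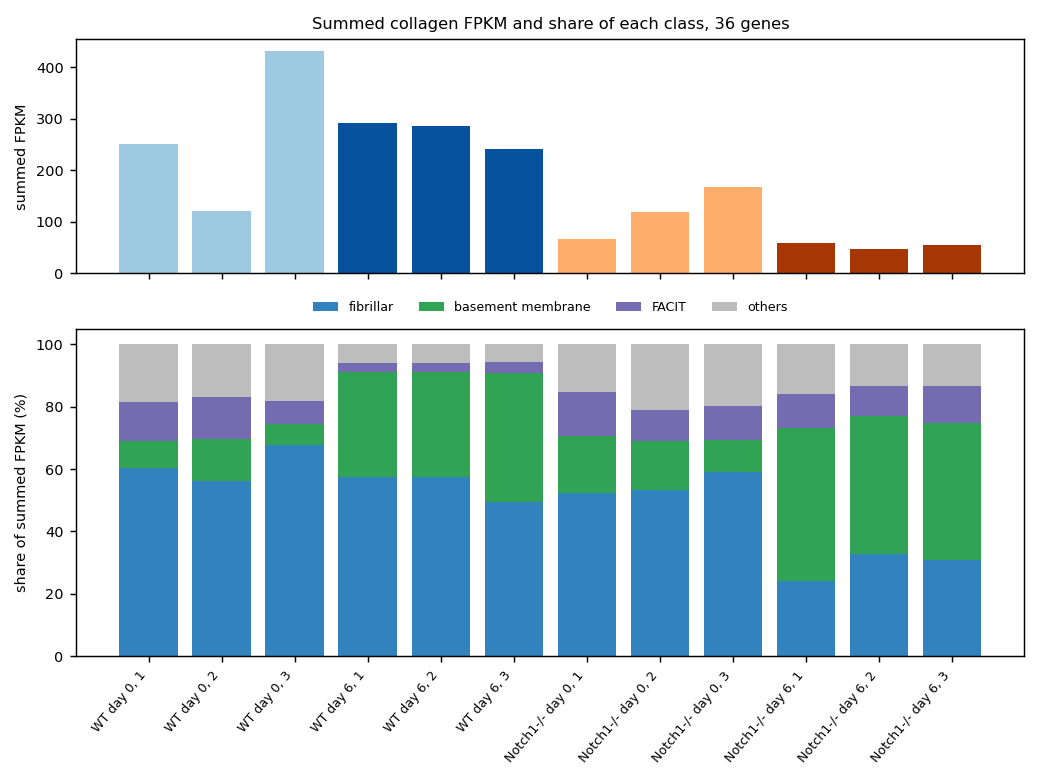
Summed FPKM of 36 collagen genes in each library (top, bars from 0) and the percentage of that sum from each class (bottom, stacked). Basement membrane collagens take 33.7% to 41.5% of the sum in WT and 44.0% to 48.9% in Notch1-/- libraries at day 6, against 6.69% to 18.2% in all 6 libraries at day 0.

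Fibrillar collagens made up most of the summed FPKM of the 36 genes in every group but Notch1-/- day 6. Their share of summed FPKM was 61.5% ± 5.93 (SD, n = 3 here and below) in WT at day 0, 54.7% ± 4.65 in WT at day 6, 55.0% ± 3.63 in Notch1-/- at day 0 and 29.3% ± 4.54 in Notch1-/- at day 6. Basement membrane collagens took 9.57% ± 3.47, 36.3% ± 4.47, 14.6% ± 4.07 and 45.6% ± 2.83 in the same order. The share of the other collagens went from 17.7% ± 0.872 to 5.78% ± 0.217 of the sum in WT and from 18.6% ± 2.97 to 14.2% ± 1.54 in Notch1-/- libraries. These shares are described without a test.

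Col1a1, the main chain of type I collagen, had the highest level of the 36 genes in WT at day 0 (68.4 ± 46.4 FPKM), in WT at day 6 (92.5 ± 27.0 FPKM) and in Notch1-/- at day 0 (20.7 ± 10.3 FPKM). At day 6 in Notch1-/- libraries Col4a1, a chain of the main basement membrane collagen, led with 15.8 ± 2.61 FPKM, ahead of Col4a2 (7.39 ± 1.22 FPKM), Col5a1 (4.35 ± 1.61 FPKM) and Col1a1 (3.45 ± 0.798 FPKM). The 1-SD ranges of the last pair overlap, as do those of Col1a1 and Col1a2 (42.6 ± 29.4 FPKM) in WT at day 0. In WT at day 6 Col1a1 was followed by Col4a1 (59.0 ± 0.757 FPKM), Col4a2 (32.1 ± 1.20 FPKM), Col5a1 (23.2 ± 2.24 FPKM) and Col3a1 (16.0 ± 3.70 FPKM), none of which overlap their neighbour by 1 SD. The number of genes at 1 FPKM or more on average was 23, 21, 19 and 13 of 36 in WT day 0, WT day 6, Notch1-/- day 0 and Notch1-/- day 6.

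**Figure D2:**
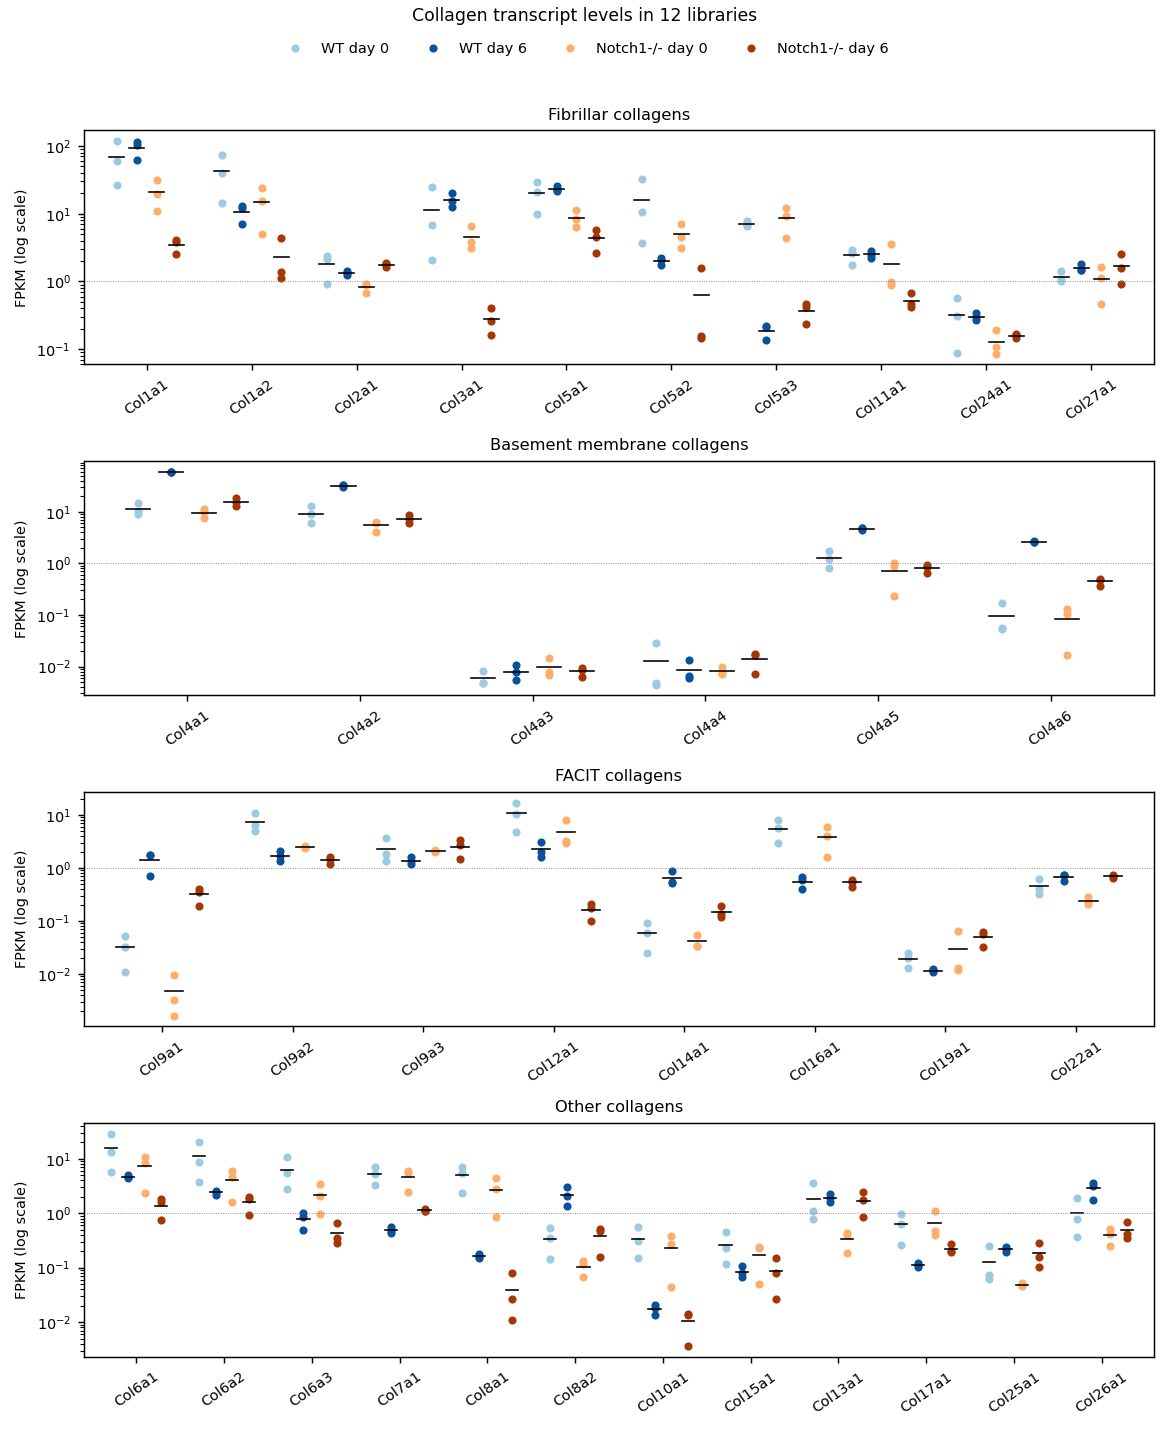
FPKM of 36 collagen genes (log axis) in each of the 12 libraries, by class. Points are libraries, black lines are group means, and the dotted line marks 1 FPKM. Col1a1 leads in 3 of the 4 groups, and Col3a1 in Notch1-/- cells at day 6 is the one fibrillar gene among Col1a1, Col1a2, Col3a1 and Col5a1 whose mean falls under 1 FPKM.

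The first comparison asked which collagens changed as WT cells went from day 0 to day 6. Of the 37 genes, 9 were higher and 15 lower at day 6, and 13 did not pass the test (quasi-likelihood test of edgeR, called where the Benjamini-Hochberg adjusted p was below 0.05). The 24 called stand beside 43.1% of all loci called in either direction. By direction, 24.3% and 40.5% stand beside 18.4% higher and 24.7% lower among all 23991 loci tested. The median log2 change of the collagens was -0.36, against -0.12 for all loci. The groups did not overlap for 26 of the 37, against 53.8% of all loci. In Notch1-/- cells 9 rose, 17 fell and 11 did not pass (24.3% and 45.9%, beside 17.2% and 18.7% of all loci, or 35.9% in either direction), with a median of -0.68 against -0.02. There 26 of 37 did not overlap, against 49.3% of all loci. Of all called loci in Notch1-/- cells, 47.8% were higher, and 37.1% were under upper quartile scaling, which moved the median of all loci from -0.12 to -0.29 in WT and from -0.02 to -0.18 in Notch1-/- cells.

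Genotypes were then compared within each day. At day 0 no collagen was higher and 4 were lower in Notch1-/- libraries, 10.8% beside 5.86% of all loci (3.71% higher, 9.56% in either direction). At an unadjusted p under 0.05, 0 were higher and 15 lower, and DESeq2 called 0 higher and 7 lower. With the replicate number as a block edgeR called 0 higher and 7 lower. The median log2 difference was -0.73, against -0.08 for all loci, and 6 of 37 genes did not overlap, against 20.6% of all loci. At day 6, 3 collagens were higher and 16 lower in Notch1-/- libraries (8.11% and 43.2%, beside 13.7% and 14.4% of all loci, or 28.1% in either direction), with a median of -0.75 against 0.01. There 24 of 37 did not overlap, against 59.2% of all loci. The difference between the genotypes' changes over 6 days was called for 9 collagens, 3 towards a higher value in Notch1-/- cells and 6 towards a lower one (8.11% and 16.2%, beside 6.36% and 4.92% of all loci, or 11.3% in either direction). The other 28 did not pass. The median over the 37 was 0.31, against 0.08 for all loci, so the family as a whole did not lean towards a lower value. These comparisons share libraries, so their values are set side by side and are not independent of each other.

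**Figure D3:**
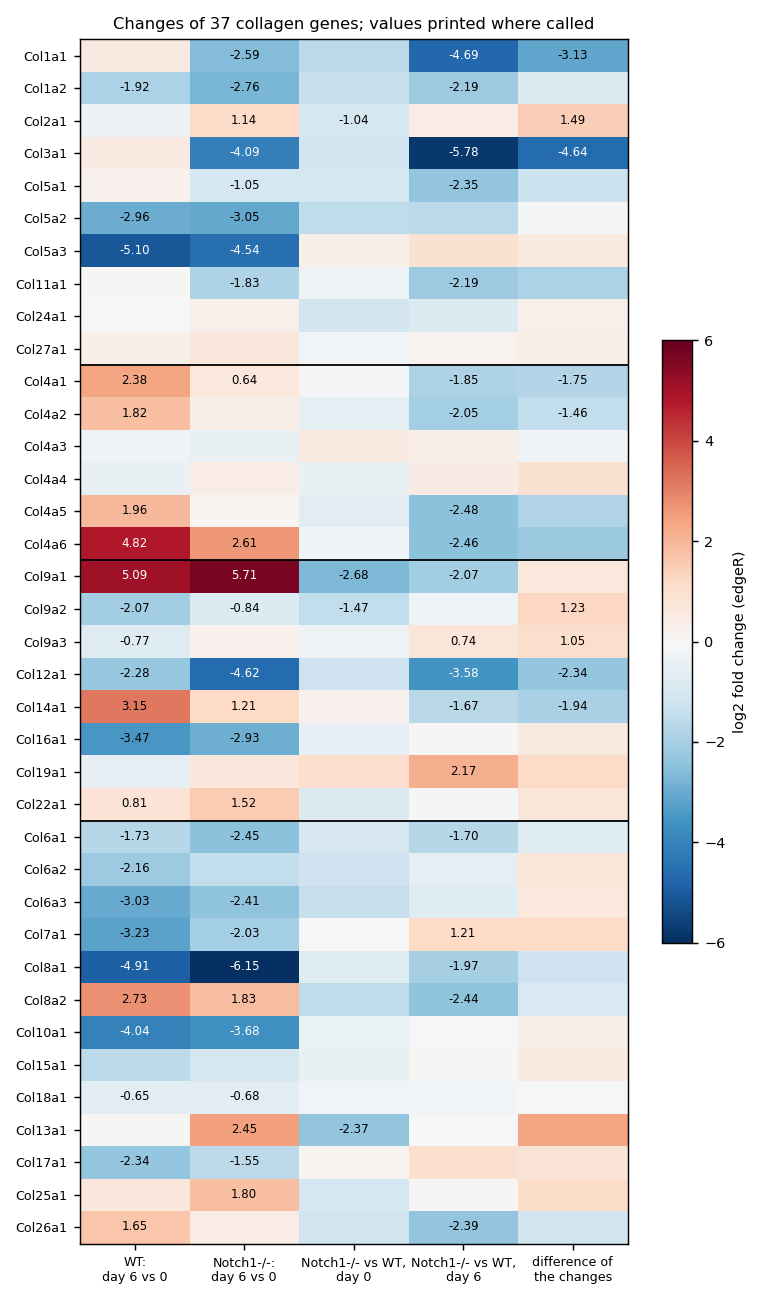
Log2 changes of 37 collagen genes (rows, with lines between the fibrillar, basement membrane, FACIT and other classes) in 5 comparisons (columns); colour gives the value and numbers are printed where it was called by edgeR. In the day 6 comparison of genotypes 16 of the 19 printed values are negative.

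Of the 10 fibrillar collagens tested, 7 fell over 6 days in Notch1-/- cells (70%, beside 18.7% of all loci). In embryoid bodies 5 were lower in Notch1-/- than in WT (50%, beside 14.4%) while the other 5 did not pass. In WT cells 3 fell and 7 did not pass over the 6 days (30% lower, near the 24.7% of all loci). In Notch1-/- cells 1 rose (10%, under the 17.2% of all loci) and 2 did not pass beside the 7 that fell. The median log2 change over 6 days was 0.03 in WT and -2.21 in Notch1-/- cells. Tested directly, the difference of the changes was called towards a higher value for 1 and a lower one for 2 of the 10. These are 10% and 20%, beside 6.36% and 4.92% of all loci. The other 7 did not pass, and the median difference was -0.47.

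Col1a1 (build mm9, as for all positions below, chr11:94795704-94814529, plus strand) had 412, 219 and 883 CPM in WT at day 0 and 886, 834 and 484 CPM at day 6. Without Notch1 it stood at 88.7, 168 and 257 CPM and then 31, 21.4 and 33.0 CPM. Its WT days overlapped, while the 3 Notch1-/- libraries at day 6 lay below all other libraries. The log2 change was 0.54 (SE 0.45, not called) in WT and -2.59 (SE 0.48, adjusted p = 0.00139) in Notch1-/- cells, and the difference of the changes was -3.13 (SE 0.66, adjusted p = 0.0095). At day 6 the genotypes differed by -4.69 (SE 0.53, adjusted p = 6.14e-05).

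Col1a2 (chr6:4454558-4491561, plus strand), the partner chain in type I collagen, had 291, 127 and 580 CPM in WT at day 0 and 107, 100 and 56.4 CPM at day 6. Notch1-/- libraries gave 41.6, 143 and 207 CPM and then 9.48, 11.8 and 36.4 CPM. It fell in both genotypes, by 1.92 in WT (SE 0.65, adjusted p = 0.0311) and by 2.76 in Notch1-/- cells (SE 0.68, adjusted p = 0.00716). The call in WT was lost without library 3 of WT day 0 (-1.25, adjusted p = 0.156) and without any 1 of the WT day 6 libraries (adjusted p from 0.0622 to 0.105). At day 6 it was lower in Notch1-/- libraries by 2.19 on the log2 scale (SE 0.66, adjusted p = 0.0264), a call lost without WT library 1 or 2 or Notch1-/- library 1 or 2 of that day (adjusted p from 0.068 to 0.0962). With limma the WT call was lost on log2(FPKM + 1), a scale that understates changes of low genes (-1.66, adjusted p = 0.0573). It was also lost on log2(FPKM + 0.1) (-1.73, adjusted p = 0.0705). The day 6 call was lost with limma on log2(FPKM + 1) without the filter on low values (-1.93, adjusted p = 0.0731).

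Col3a1 (chr1:45368383-45406551, plus strand), the chain of type III collagen of elastic tissues and vessel walls, had 53.6, 19.6 and 211 CPM in WT at day 0 and 109, 138 and 168 CPM at day 6. The Notch1-/- libraries held 28.2, 38.3 and 62.2 CPM and then 2.40, 1.48 and 3.66 CPM. At day 6 the lowest WT library thus stood far above the highest Notch1-/- library, and the difference was -5.78 (SE 0.77, adjusted p = 0.000193), the most negative among the 37 genes in this comparison. Its change was 0.55 (SE 0.62, not called) in WT and -4.09 (SE 0.71, adjusted p = 0.00092) in Notch1-/- cells, with a difference of -4.64 (SE 0.93, adjusted p = 0.00767). That difference was not called by limma on log2(FPKM + 1) without the filter (-3.04, adjusted p = 0.0623).

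Type V collagen nucleates fibrils of type I. Col5a1 (chr2:27740872-27895033, plus strand) had 252, 147 and 383 CPM in WT at day 0, 285, 350 and 289 CPM at day 6, and 87.3, 126 and 161 CPM and then 63.6, 81.3 and 35.9 CPM in Notch1-/- libraries. It was lower in Notch1-/- libraries at day 6 by 2.35 on the log2 scale (SE 0.36, adjusted p = 0.000479). Its fall of 1.05 over 6 days in Notch1-/- cells (SE 0.34, adjusted p = 0.0307) was not called without Notch1-/- library 2 or 3 of day 0 or 1 or 3 of day 6 (values from -0.77 to -1.08, adjusted p from 0.0605 to 0.112), nor by limma on log2(FPKM + 1) (-0.86, adjusted p = 0.082).

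Col5a2 (chr1:45431094-45560286, minus strand) lies next to Col3a1 and had 97.6, 41.5 and 329 CPM in WT at day 0 and 17.4, 22.6 and 20.3 CPM at day 6. Without Notch1 it stood at 33.4, 53.3 and 78.5 CPM and then 1.62, 1.59 and 16.7 CPM. Library 3 of Notch1-/- day 6 stood apart from the others. The gene fell by 2.96 in WT (SE 0.89, adjusted p = 0.0172) and by 3.05 in Notch1-/- cells (SE 0.90, adjusted p = 0.0183), or -5.09 without that library. The WT call was lost without library 3 of WT day 0 (-1.79, adjusted p = 0.108) or any WT library of day 6 (adjusted p from 0.0517 to 0.0613), and the Notch1-/- call without library 3 of day 0 or 1 or 2 of day 6 (adjusted p from 0.0531 to 0.0609) or by limma on log2(FPKM + 1) without the filter (-1.92, adjusted p = 0.0537).

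Col5a3 (chr9:20574494-20619518, minus strand), whose promoter is shown above, had 45.5, 55.9 and 58.0 CPM in WT at day 0 and 1.81, 1.19 and 1.63 CPM at day 6. Notch1-/- libraries gave 34.9, 78.5 and 87.7 CPM and then 3.23, 1.76 and 3.68 CPM. It fell in both genotypes, by 5.10 (SE 0.39, adjusted p = 2.62e-06) in WT and by 4.54 (SE 0.38, adjusted p = 8.64e-06) in Notch1-/- cells. The genotypes did not pass the test against each other on either day (0.33 with SE 0.32 and 0.90 with SE 0.34), and the difference of the changes was 0.57 (SE 0.47, not called). Col5a1 was not called in WT cells (0.24, SE 0.34).

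Col11a1 (chr3:113733354-113923546, plus strand), a minor fibril chain of cartilage, had 23.9, 19.5 and 29.3 CPM in WT at day 0, 22.7, 25.5 and 27.4 CPM at day 6, and 9.38, 11.4 and 38.5 CPM and then 4.49, 4.99 and 7.10 CPM in Notch1-/- libraries. It fell by 1.83 in Notch1-/- cells (SE 0.44, adjusted p = 0.00606), or by 0.92 without library 3 of Notch1-/- day 0, and was lower by 2.19 in Notch1-/- libraries at day 6 (SE 0.44, adjusted p = 0.00298). The fall was not called by limma on log2(FPKM + 1) (-0.77, adjusted p = 0.0685). Col2a1 (chr15:97806033-97835211, minus strand), the collagen of cartilage and notochord, went the other way. It had 12.6, 6.20 and 14.4 CPM in WT at day 0 and 9.37, 8.45 and 8.06 CPM at day 6, and 5.91, 4.57 and 5.68 CPM and then 10.8, 12.8 and 11.9 CPM in Notch1-/- libraries.

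Col2a1 was the one fibrillar gene of 10 to rise in Notch1-/- cells (1.14, SE 0.27, adjusted p = 0.00582), and the difference from its change in WT was 1.49 (SE 0.38, adjusted p = 0.0232). That difference was not called without WT library 3 of day 0, any WT library of day 6, Notch1-/- library 2 of day 0 or library 2 or 3 of day 6 (values from 1.26 to 1.56, adjusted p from 0.0504 to 0.0677), nor by limma on log2(FPKM + 1) (0.82, adjusted p = 0.0656). The rise was lost there without the filter (0.60, adjusted p = 0.0555). Col24a1 and Col27a1, the remaining fibrillar chains, did not pass any of the 5 tests. Col24a1 ranged from 1.05 to 5.75 CPM and Col27a1 from 5.56 to 27.4 CPM over the 12 libraries.

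The day 0 libraries of a group differed from each other in the same order for many of these genes. From lowest to highest the feeder fibroblast list ran through WT libraries 2, 1 and 3 (mean log2 CPM of 3.71, 4.44 and 5.17) and Notch1-/- libraries 1, 2 and 3 (3.35, 4.42 and 4.89). Of the 10 fibrillar genes, 8 had that order in WT and 8 in Notch1-/- libraries. Over the 37 collagens it was 22 and 24, beside 17.3% and 21.3% of all loci tested. The list's mean was 2.53, 2.57 and 2.57 in WT and 1.48, 1.52 and 1.75 in Notch1-/- libraries at day 6. This mean, but not the summed level in WT, was lower at day 6 than at day 0. Mean and sum were both lower in Notch1-/- than in WT libraries at day 6, as the fibrillar mean was. The 15 feeder markers did not all move together. Over the 6 days 4 rose and 10 fell in WT (26.7% and 66.7%, beside 18.4% and 24.7% of all loci). At day 6, 3 were higher and 7 lower in Notch1-/- libraries (20% and 46.7%, beside 13.7% and 14.4%). Markers of mesoderm and mesenchyme (5 tested) also differed, with sums of 444 to 704 CPM in WT and 89.7 to 249.6 CPM in Notch1-/- libraries at day 6 and 13.4 to 56.7 CPM in all libraries at day 0. Their mean log2 CPM was 5.15 to 5.52 in WT and 2.21 to 3.56 in Notch1-/- libraries at day 6. In Notch1-/- libraries it overlapped day 0 (1.36 to 2.41). At day 6, 1 of the 5 was higher and 3 were lower in Notch1-/- libraries (20% and 60%, beside 13.7% and 14.4% of all loci). The part of these cells in the fibrillar results was not tested.

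**Figure D4:**
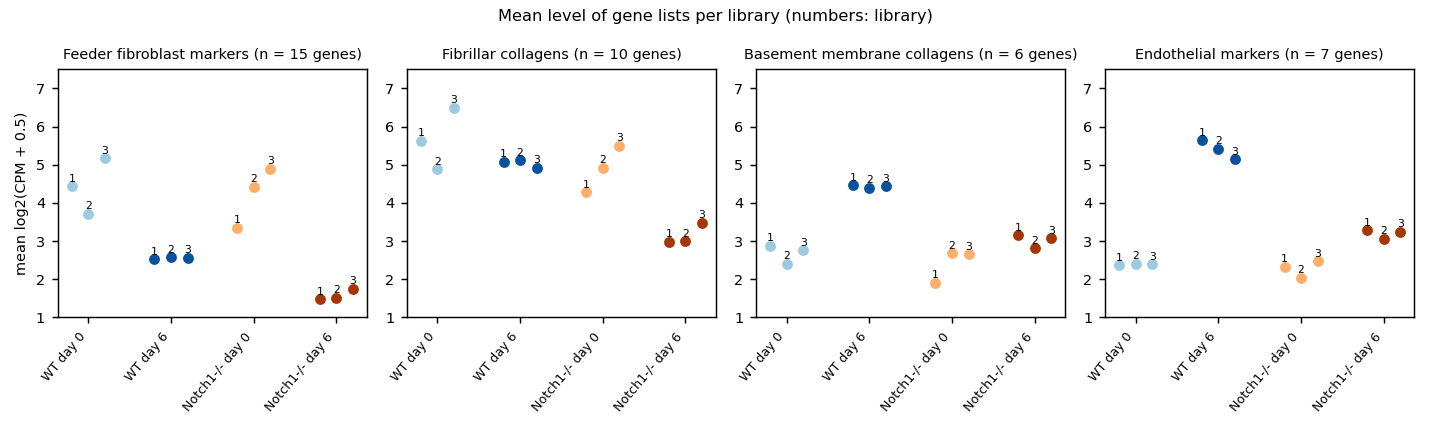
Mean log2(CPM + 0.5) of 4 gene lists in each library, with the library number beside each point. The feeder fibroblast list and the fibrillar collagens follow the same order of libraries within each day 0 group, and the basement membrane collagens and endothelial markers lie highest in WT day 6.

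Of the 6 chains of type IV collagen, the main collagen of the basement membrane, 4 rose over 6 days in WT (66.7%, beside 18.4% of all loci). In Notch1-/- cells 2 rose (33.3%, beside 17.2%). The 4 that rose in WT were lower in Notch1-/- than in WT embryoid bodies (66.7%, beside 14.4%). The remaining chains did not pass. At day 0 the genotypes differed by a median of -0.34, and the smallest adjusted p was that of Col4a2 (-0.59, SE 0.24, adjusted p = 0.128). The 2 that passed in none of the comparisons, Col4a3 and Col4a4, chains of the kidney filter, had 7 to 68 counts per library and stayed under 0.5 CPM in each.

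Col4a1 (chr8:11198423-11313103, minus strand) had 93.7, 98 and 145 CPM in WT at day 0 and 583, 593 and 585 CPM at day 6. The Notch1-/- libraries held 80.2, 129 and 105 CPM and then 192, 139 and 158 CPM. The genotypes overlapped at day 0 and stood apart at day 6. It rose by 2.38 in WT (SE 0.21, adjusted p = 5.97e-06) and by 0.64 in Notch1-/- cells (SE 0.20, adjusted p = 0.0247), a difference of -1.75 (SE 0.28, adjusted p = 0.00222). The smaller rise was not called under upper quartile scaling (0.48, adjusted p = 0.0765), or without library 1 or 3 of Notch1-/- day 0 or library 1 of day 6 (adjusted p from 0.0696 to 0.103).

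Col4a2 (chr8:11312482-11449392, plus strand), which pairs with Col4a1 in the same protein and is read from the opposite strand next to it, had 77.6, 65.2 and 125 CPM in WT at day 0 and 321, 308 and 315 CPM at day 6. Without Notch1 it stood at 42.3, 70.8 and 64.3 CPM and then 88.6, 64.4 and 74.5 CPM. It rose by 1.82 in WT (SE 0.24, adjusted p = 0.000108), was not called in Notch1-/- cells (0.36, SE 0.24), and the changes differed by -1.46 (SE 0.33, adjusted p = 0.015). The 2 loci share 588 bases of exon, so part of their reads cannot be assigned to one of them.

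Col4a5 (chrX:137909958-138123778, plus strand) had 16.0, 8.97 and 12 CPM in WT at day 0 and 48.0, 46.7 and 49.3 CPM at day 6. Notch1-/- libraries gave 2.49, 10.2 and 10.9 CPM and then 9.08, 7.02 and 9.76 CPM. It rose by 1.96 in WT (SE 0.42, adjusted p = 0.00235) and was lower in Notch1-/- libraries at day 6 by 2.48 on the log2 scale (SE 0.42, adjusted p = 0.00107). Its change in Notch1-/- cells was 0.14 (SE 0.40, not called), and the difference of the changes, -1.82, was not called (adjusted p = 0.0585).

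Col4a6 (chrX:137599690-137908619, minus strand), the head-to-head neighbour of Col4a5, had 1.80, 0.597 and 0.633 CPM in WT at day 0 and 30.6, 28.0 and 27.5 CPM at day 6. The Notch1-/- libraries held 0.188, 1.20 and 1.16 CPM and then 5.77, 4.33 and 5.58 CPM. It rose in both genotypes, by 4.82 in WT (SE 0.61, adjusted p = 7.11e-05) and by 2.61 in Notch1-/- cells (SE 0.56, adjusted p = 0.00319). At day 6 it was lower in Notch1-/- libraries by 2.46 (SE 0.54, adjusted p = 0.00504). The difference of the changes was -2.21 (SE 0.75) and was not called (adjusted p = 0.0784).

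Marker lists of cell types that rest on or lay down basement membrane moved in these libraries too. The mean log2 CPM of 7 endothelial markers was 2.37 to 2.40 in WT at day 0 and 5.15 to 5.64 at day 6, and 2.04 to 2.48 and then 3.06 to 3.28 in Notch1-/- libraries, with summed levels of 128 to 183, 482 to 655, 93.4 to 166 and 207 to 466 CPM. For 9 visceral endoderm markers it was 0.24 to 0.46 and 3.17 to 3.6 in WT and 0.03 to 0.33 and 0.60 to 1.22 in Notch1-/- libraries, with sums of 8.92 to 13.8, 205 to 284, 7.96 to 11.2 and 23.7 to 55.6 CPM. For 7 parietal endoderm markers it was 3.06 to 3.39 and 4.63 to 4.76 in WT and 2.69 to 3.56 and 4.55 to 4.90 in Notch1-/- libraries, with sums of 87.2 to 120, 296 to 318, 93.2 to 166 and 363 to 556 CPM. The endothelial and visceral endoderm lists were thus higher in WT than in Notch1-/- libraries at day 6, as Col4a1, Col4a2, Col4a5 and Col4a6 were. The means of the parietal endoderm list overlapped at day 6, while its sums were higher in every Notch1-/- library than in every WT library. Of its 7 markers 1 was higher and 2 lower in Notch1-/- libraries (14.3% and 28.6%, beside 13.7% and 14.4% of all loci). The other 4 did not pass, and the median log2 difference was -0.77. Its sum thus went opposite to those 4 type IV genes, but its median did not. The part of these cells in the result was not tested.

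FACIT collagens went in both directions. Of the 8 of them tested, 3 rose and 4 fell in WT (37.5% and 50%, beside 18.4% and 24.7% of all loci). In Notch1-/- cells 3 rose and 3 fell (37.5% each, beside 17.2% and 18.7%). In Notch1-/- embryoid bodies 2 were higher and 3 lower than in WT (25% and 37.5%, beside 13.7% and 14.4%). Type IX chains, which coat cartilage fibrils, did not move together. Col9a1 (chr1:24184449-24259577, plus strand) had 0.300, 0.0682 and 0.203 CPM in WT at day 0 and 8.05, 8.37 and 3.29 CPM at day 6. Without Notch1 it stood at 0.0198, 0.00879 and 0.0602 CPM, that is 2, 1 and 6 counts, and then 2.00, 1.76 and 0.946 CPM. It rose by 5.09 in WT (SE 0.61, adjusted p = 5.27e-05) and by 5.71 in Notch1-/- cells (SE 0.71, adjusted p = 0.000101), the latter from too few counts for a firm size and not called by limma on log2(FPKM + 1) (0.38, adjusted p = 0.0779). At day 6 it was lower in Notch1-/- libraries by 2.07 on the log2 scale (SE 0.52, adjusted p = 0.0112), a call lost without Notch1-/- library 3 of that day (-1.80, adjusted p = 0.0513).

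Col9a2 (chr4:120712171-120728039, plus strand) fell instead. It had 46.0, 29.4 and 23.1 CPM in WT at day 0 and 9.86, 7.70 and 5.96 CPM at day 6, and 12.6, 12.2 and 10.9 CPM and then 7.68, 5.52 and 6.69 CPM in Notch1-/- libraries. The fall was 2.07 in WT (SE 0.27, adjusted p = 9.2e-05) and 0.84 in Notch1-/- cells (SE 0.26, adjusted p = 0.0242). At day 0 every Notch1-/- library lay below every WT library, a difference of -1.47 (SE 0.26, adjusted p = 0.00434). The smaller fall was not called without Notch1-/- library 2 of day 0 or 2 or 3 of day 6 (adjusted p from 0.0564 to 0.0906), nor by limma on log2(FPKM + 1) (-0.53, adjusted p = 0.0939). The changes differed by 1.23 (SE 0.37, adjusted p = 0.0494), which was not called without WT library 1 of day 0, WT library 2 or 3 of day 6 or any Notch1-/- library (adjusted p from 0.0545 to 0.119). It was also lost without the filter on low counts (1.21, adjusted p = 0.0571), without loci that share at least 50% of their exons (1.23, adjusted p = 0.0506) and with limma on log2(FPKM + 1) (1.06, adjusted p = 0.051).

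Col9a3 (chr2:180331462-180377352, plus strand) had 64.8, 55.6 and 39.1 CPM in WT at day 0, 31.7, 28.4 and 33.5 CPM at day 6, and 40.7, 46.5 and 41.8 CPM and then 51.1, 39.8 and 65.7 CPM in Notch1-/- libraries. It fell by 0.77 in WT (SE 0.21, adjusted p = 0.0093), was not called in Notch1-/- cells (0.28, SE 0.20), and was higher in Notch1-/- libraries at day 6 by 0.74 (SE 0.21, adjusted p = 0.0177). That last call was lost without WT library 1 or 2 or Notch1-/- library 3 of day 6 (adjusted p from 0.057 to 0.0897). The changes differed by 1.05 (SE 0.29, adjusted p = 0.0358), called only without WT library 3 of day 0 or Notch1-/- library 2 of day 6 among the 12 libraries left out in turn (adjusted p otherwise from 0.0507 to 0.102). The 3 Col9a3 calls were not made by limma on FPKM, with adjusted p from 0.126 to 0.386. The Col9a3 locus held 25920 bases of exon, against 4118 for Col9a1 and 4110 for Col9a2. It had 21.8 CPM per FPKM, against 4.78 and 4.53 for those genes. How much of its count comes from sequence outside Col9a3 was not tested, and it was kept in the FPKM shares.

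Col12a1 (chr9:79446798-79566650, minus strand), a FACIT chain of tendon and other dense tissue, had 156, 80.3 and 265 CPM in WT at day 0 and 25.2, 31.8 and 46.2 CPM at day 6. Notch1-/- libraries gave 49.3, 53.4 and 110 CPM and then 2.01, 3.19 and 3.42 CPM. It fell by 2.28 in WT (SE 0.43, adjusted p = 0.00109) and by 4.62 in Notch1-/- cells (SE 0.48, adjusted p = 3.06e-05), and the difference at day 6 was -3.58 (SE 0.45, adjusted p = 0.00014). The difference of the changes was -2.34 (SE 0.59, adjusted p = 0.0227), and it was not called without WT library 3 of day 6, Notch1-/- library 3 of day 0 or Notch1-/- library 1 of day 6 (-1.90 to -2.14, adjusted p from 0.0535 to 0.058). With limma on log2(FPKM + 1) it was -0.46 (adjusted p = 0.638).

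Col16a1 (chr4:129723072-129776523, plus strand) had 43.9, 26.6 and 63.5 CPM in WT at day 0 and 3.21, 3.96 and 4.90 CPM at day 6, and 13.8, 36.1 and 46.8 CPM and then 4.69, 3.15 and 4.82 CPM in Notch1-/- libraries. It fell in both, by 3.47 (SE 0.44, adjusted p = 7.11e-05) and by 2.93 (SE 0.43, adjusted p = 0.000277), with a difference of the changes of 0.54 (SE 0.56, not called). Col14a1, which binds mature fibrils and stayed under 1 FPKM on average, rose by 3.15 in WT (SE 0.37, adjusted p = 4.34e-05) and by 1.21 in Notch1-/- cells (SE 0.35, adjusted p = 0.0169). The second call was lost without library 2 of Notch1-/- day 0 (1.15, adjusted p = 0.0552) or library 2 of day 6 (1.13, adjusted p = 0.051), and by limma on log2(FPKM + 1) (0.14, adjusted p = 0.17). At day 6 it was lower in Notch1-/- libraries by 1.67 on the log2 scale (SE 0.35, adjusted p = 0.00348). The changes differed by -1.94 (SE 0.49, adjusted p = 0.0236), not called without WT library 3 of day 6, Notch1-/- library 3 of day 0 or Notch1-/- library 1 or 3 of day 6 (adjusted p from 0.0532 to 0.0706).

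Col22a1, of tissue junctions, had 1.44 to 6.29 CPM over the 12 libraries and rose by 0.81 in WT (SE 0.29, adjusted p = 0.0379) and by 1.52 in Notch1-/- cells (SE 0.30, adjusted p = 0.00185). The WT call was lost under upper quartile scaling (0.64, adjusted p = 0.0932), without WT library 2 or 3 of day 0, WT library 1 or 2 of day 6 or Notch1-/- library 2 of day 6 (adjusted p from 0.05 to 0.119), with the 2 groups alone (0.81, adjusted p = 0.0743) and by limma on log2(FPKM + 1) (0.22, adjusted p = 0.055). Col19a1 had 0.186 to 1.17 CPM and was higher in Notch1-/- libraries at day 6 by 2.17 (SE 0.58, adjusted p = 0.0143), a call lost without WT library 1 or 2 of that day (adjusted p = 0.0528 and 0.0534) or by limma on log2(FPKM + 1) without the filter (0.05, adjusted p = 0.0668).

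Of 13 tested collagens of other types, 2 rose and 8 fell in WT (15.4% and 61.5%, beside 18.4% and 24.7% of all loci). In Notch1-/- cells 3 rose and 7 fell (23.1% and 53.8%, beside 17.2% and 18.7%). In Notch1-/- embryoid bodies 1 was higher and 4 were lower than in WT (7.69% and 30.8%, beside 13.7% and 14.4%). Type VI collagen forms beaded filaments around cells and is built from 3 chains. Col6a1 (chr10:76171535-76188961, minus strand) had 73.6, 38.3 and 175 CPM in WT at day 0, 28.3, 31.4 and 26.5 CPM at day 6, and 15.2, 58.3 and 71.7 CPM and then 11.6, 4.89 and 10 CPM in Notch1-/- libraries. Col6a2 (chr10:76058501-76086196, minus strand) had 46.7, 23.9 and 118 CPM, then 15.3, 14.8 and 12.2 CPM, and 9.80, 31.4 and 38.0 CPM and then 11.2, 5.63 and 12.1 CPM in the same order. Col6a3 (chr1:92663434-92740763, minus strand) had 73.1, 45.6 and 160 CPM, then 7.27, 12.8 and 14.1 CPM, and 15.2, 36.9 and 56.2 CPM and then 5.57, 4.58 and 10.2 CPM.

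All 3 chains were highest in library 3 of each day 0 group. They fell in WT by 1.73 (Col6a1, SE 0.57, adjusted p = 0.0261), 2.16 (Col6a2, SE 0.56, adjusted p = 0.00798) and 3.03 (Col6a3, SE 0.54, adjusted p = 0.000823). Without library 3 of WT day 0 the values were -0.96 for Col6a1 and -1.32 for Col6a2, and neither was called (adjusted p = 0.173 and 0.0514). The Col6a1 call was also lost without any 1 of the WT day 6 libraries (adjusted p from 0.0654 to 0.0764) and by limma on log2(FPKM + 1) (-1.34, adjusted p = 0.0658). In Notch1-/- cells Col6a1 fell by 2.45 (SE 0.58, adjusted p = 0.00614) and Col6a3 by 2.41 (SE 0.53, adjusted p = 0.0039), while Col6a2 was not called (-1.45, SE 0.55). Limma on log2(FPKM + 1) did not call Col6a3 there (-1.08, adjusted p = 0.0523), nor Col6a1 without the filter (-1.63, adjusted p = 0.0657). Between genotypes at day 6 Col6a1 was called (-1.70, SE 0.57, adjusted p = 0.0413), but not without any 1 of the 6 day 6 libraries (adjusted p from 0.0589 to 0.138), nor by limma on log2(FPKM + 1) (-1.27, adjusted p = 0.103).

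Col7a1 (chr9:108855595-108889209, plus strand), of the anchoring fibrils under epithelia, had 76.4, 63.0 and 109 CPM in WT at day 0 and 7.52, 9.15 and 9.85 CPM at day 6. The Notch1-/- libraries held 44.8, 98.9 and 107 CPM and then 20.2, 20.6 and 20.7 CPM. It fell by 3.23 in WT (SE 0.31, adjusted p = 1.02e-05) and by 2.03 in Notch1-/- cells (SE 0.29, adjusted p = 0.00025), and all Notch1-/- libraries at day 6 lay above the WT ones (1.21, SE 0.29, adjusted p = 0.00741). With limma on log2(FPKM + 1) that difference was 0.52 and was not called (adjusted p = 0.179).

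Type VIII collagen forms hexagonal nets under endothelia, and its 2 chains moved apart. Col8a1 (chr16:57624369-57754850, minus strand) had 39.9, 20.3 and 56.8 CPM in WT at day 0 and 1.21, 1.28 and 1.41 CPM at day 6, and 7.05, 25.2 and 38.2 CPM and then 0.0900, 0.226 and 0.663 CPM in Notch1-/- libraries. Col8a2 (chr4:125964038-125991595, plus strand) had 3.19, 1.02 and 2.27 CPM in WT at day 0, 20.3, 14.0 and 8.73 CPM at day 6, and 0.813, 0.501 and 0.922 CPM and then 3.53, 3.34 and 1.09 CPM in Notch1-/- libraries. Col8a1 fell by 4.91 in WT (SE 0.71, adjusted p = 0.000182) and by 6.15 in Notch1-/- cells (SE 0.76, adjusted p = 9.59e-05), and Col8a2 rose by 2.73 (SE 0.51, adjusted p = 0.00113) and by 1.83 (SE 0.51, adjusted p = 0.0141). Both were lower in Notch1-/- libraries at day 6, by 1.97 (SE 0.67, adjusted p = 0.0429) and by 2.44 (SE 0.51, adjusted p = 0.00364).

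The Col8a1 value at day 6 was -3.00 without Notch1-/- library 3. It was not called without WT library 1, 2 or 3 of day 6, Notch1-/- library 1 or 2 of day 6, WT library 1 of day 0 or Notch1-/- library 2 of day 0 (adjusted p from 0.0511 to 0.135), nor by limma on log2(FPKM + 1) (-0.16, adjusted p = 0.796). The rise of Col8a2 in Notch1-/- cells was not called without library 2 of day 0 or library 1 of day 6 (adjusted p = 0.0582 and 0.0524), nor by limma on log2(FPKM + 1) (0.31, adjusted p = 0.222). Col10a1, the third hexagonal net collagen and a gene of growth plate cartilage, was linked to its locus by 2 of 2 possible links and stayed at or under 2.67 CPM. It fell by 4.04 in WT (SE 0.68, adjusted p = 0.000509) and by 3.68 in Notch1-/- cells (SE 0.67, adjusted p = 0.00119), the second not called by limma on log2(FPKM + 1) (-0.27, adjusted p = 0.0804).

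Among collagens that cross the membrane, Col13a1 (chr10:61300841-61441965, minus strand), of cell contacts with the matrix, had 14.0, 4.93 and 3.43 CPM in WT at day 0 and 8.09, 9.48 and 5.93 CPM at day 6. Without Notch1 it stood at 0.813, 1.75 and 1.75 CPM and then 11.2, 8.55 and 3.83 CPM. It rose by 2.45 in Notch1-/- cells (SE 0.54, adjusted p = 0.00394) and was lower in them at day 0 by 2.37 (SE 0.54, adjusted p = 0.0165). The day 0 call was lost without WT library 1 (-1.54, adjusted p = 0.07), with the 2 groups alone (-2.36, adjusted p = 0.0667) and by limma on log2(FPKM + 1) (-0.96, adjusted p = 0.102). The rise was lost by limma without the filter (0.97, adjusted p = 0.0763). Col17a1, of hemidesmosomes, had 0.853 to 8.73 CPM and fell by 2.34 in WT (SE 0.45, adjusted p = 0.00137) and by 1.55 in Notch1-/- cells (SE 0.44, adjusted p = 0.0154). The second value was -0.96 without Notch1-/- library 1 of day 0 and was lost there and without library 2 or 3 of day 6 (adjusted p from 0.0527 to 0.0681), and by limma on log2(FPKM + 1) (-0.42, adjusted p = 0.08). Col25a1, a neuronal collagen, had 0.407 to 3.07 CPM and rose by 1.80 in Notch1-/- cells (SE 0.47, adjusted p = 0.0101), which limma on log2(FPKM + 1) did not call (0.17, adjusted p = 0.0856).

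Col18a1 (chr10:76514924-76663968, minus strand) is a basement membrane collagen with sugar side chains, counted here with the other types. It had 108, 102 and 147 CPM in WT at day 0, 81.6, 73.0 and 72.5 CPM at day 6, and 130, 92.9 and 98.9 CPM and then 58.5, 70.0 and 73.0 CPM in Notch1-/- libraries. It fell by 0.65 in WT (SE 0.17, adjusted p = 0.0084) and by 0.68 in Notch1-/- cells (SE 0.17, adjusted p = 0.00869), the second not called without Notch1-/- library 1 of day 6 (-0.58, adjusted p = 0.0503). Its locus shares 26.34% of its exon length with another locus. Col15a1, its relative, had 0.265 to 3.70 CPM and passed no test. Col26a1 (chr5:137217633-137359081, minus strand) had 6.28, 1.41 and 2.83 CPM in WT at day 0, 14.0, 12.6 and 6.41 CPM at day 6, and 1.66, 1.05 and 1.92 CPM and then 3.01, 1.84 and 1.47 CPM in Notch1-/- libraries. It rose by 1.65 in WT (SE 0.49, adjusted p = 0.0168) and was lower in Notch1-/- libraries at day 6 by 2.39 (SE 0.51, adjusted p = 0.00409). The rise was not called without WT library 3 of day 0 or 1 or 2 of day 6 (adjusted p from 0.0506 to 0.0614).

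The 4 collagens lower in Notch1-/- libraries at day 0 were Col2a1 (-1.04, SE 0.27, adjusted p = 0.0303), Col9a1 (-2.68, SE 0.73, adjusted p = 0.0374), Col9a2 (-1.47) and Col13a1 (-2.37). Col1a1 missed the threshold there (-1.56, SE 0.46, adjusted p = 0.0525). The number called rose to 14 without WT library 2, and fell to 1 without WT library 1 and to 2 without Notch1-/- library 2. In the feeder list WT library 2 was the lowest of its group, and WT library 1 and Notch1-/- library 2 were in the middle of theirs. Of the 15 feeder markers 0 were called between genotypes at day 0. The part of feeder cells in these counts was not tested. Without WT library 1 or 3 or Notch1-/- library 2 or 3 the Col2a1 value was -0.80 to -1.06 (adjusted p from 0.0692 to 0.126). It was not called with the 2 groups alone (-1.02, adjusted p = 0.184) or by limma on log2(FPKM + 1) (-0.57, adjusted p = 0.089). Col9a1 was not called without WT library 1 or 3 or Notch1-/- library 1 or 2 (adjusted p from 0.0631 to 0.148). With limma its value was -0.04 on log2(FPKM + 1) (adjusted p = 0.893) and -0.32 on log2(FPKM + 0.1) (adjusted p = 0.529), neither called. The 3 collagens higher in Notch1-/- libraries at day 6 were Col7a1, Col9a3 and Col19a1, and 1 of them was called without WT library 1 or without WT library 2 of day 6.

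Chains that assemble into 1 protein were compared by the ratio of their FPKM. Col1a1 to Col1a2 was 1.5, 1.84 and 1.62 in WT at day 0 and 8.55, 8.56 and 8.65 at day 6. In Notch1-/- libraries it was 2.23, 1.25 and 1.31 and then 3.37, 1.82 and 0.922. The WT day 6 libraries stood apart from the other 9 and lay close together, although Col1a1 itself ranged from 484 to 886 CPM there. The mean log2 ratio was 2.38 higher at day 6 than at day 0 in WT (two-sided exact permutation p = 0.1, adjusted p = 0.175 over 28 tests), and 0.1 is the smallest p that 3 against 3 allows. The SD of the log2 ratio was 0.0093 at day 6 and 0.15 at day 0. The type I protein is usually made of 2 chains from Col1a1 and 1 from Col1a2.

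Col5a1 to Col5a2 went from 1.97, 2.69 and 0.880 to 12.3, 11.7 and 10.7 in WT, and from 2.00, 1.84 and 1.57 to 29.6, 39.8 and 1.66 in Notch1-/- libraries, where library 3 lay within the range of day 0. Col4a5 to Col4a6 went from 10.2, 14.5 and 22.6 to 1.75, 1.75 and 1.94 in WT and from 14.2, 8.50 and 7.55 to 1.71, 1.79 and 1.92 in Notch1-/- libraries. At day 6 this ratio differed by less than the spread between libraries, although the level of both genes was lower in Notch1-/- cells. Col4a1 to Col4a2 lay between 1.15 and 2.14 in all 12 libraries, and rose within that range. It went from 1.18, 1.49 and 1.15 to 1.80, 1.90 and 1.82 in WT. In Notch1-/- libraries it went from 1.86, 1.80 and 1.61 to 2.14, 2.14 and 2.12. Neither the days within a genotype nor the genotypes within a day overlapped. Col6a1 to Col6a2 was 1.41 to 2.06 in all libraries but those of Notch1-/- day 6, where it was 0.992, 0.807 and 0.793. Col8a1 to Col8a2 was 10.5, 16.1 and 20.7 in WT at day 0 and 0.0495, 0.0761 and 0.134 at day 6, and in Notch1-/- libraries 7.28, 40.9 and 34.2 and then 0.0220, 0.0569 and 0.513. Col1a1 to Col3a1, which build separate proteins of the same fibrils, was 3.10 to 13.0 in WT, 3.55 to 5.09 in Notch1-/- day 0 and 9.86 to 15.7 in Notch1-/- day 6. None of the 28 comparisons can reach an adjusted p under 0.05 with 3 libraries a group, and the smallest was 0.175.

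**Figure D5:**
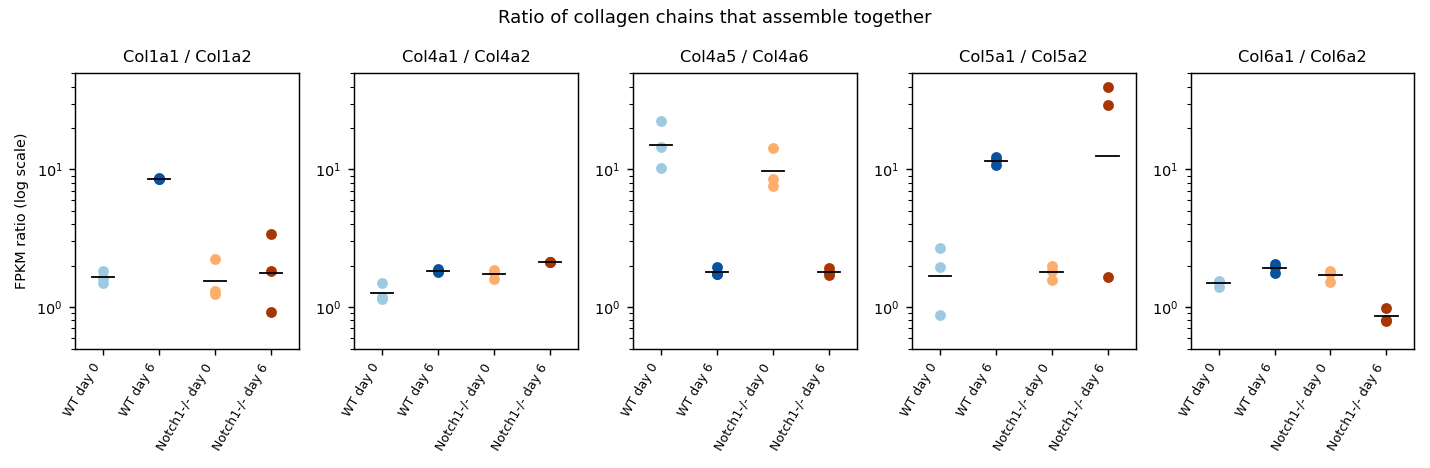
FPKM ratio of 2 collagen chains (log axis) in each library for 5 pairs. Points are libraries and lines are geometric means; the Col1a1 to Col1a2 ratio lies at 8.55 to 8.65 in WT day 6 and between 0.922 and 3.37 elsewhere.

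Genes that make, process, bind or sense collagens were taken from lists by function. Over all loci tested, 18.4% rose and 24.7% fell in WT, 17.2% rose and 18.7% fell in Notch1-/- cells, and 13.7% were higher and 14.4% lower in Notch1-/- embryoid bodies. Each list is read against these shares. Of 18 tested genes for collagen biosynthesis in the cell, 5 rose and 3 fell in WT (27.8% and 16.7%), 2 rose and 6 fell in Notch1-/- cells (11.1% and 33.3%), and 8 were lower and 10 did not pass in Notch1-/- embryoid bodies (44.4% lower). Serpinh1, the collagen chaperone HSP47, rose from 179 ± 67.2 to 789 ± 71.9 CPM in WT (2.14, SE 0.27, adjusted p = 6.85e-05) and was lower in Notch1-/- libraries at day 6, at 194 ± 25.5 CPM (-2.02, SE 0.27, adjusted p = 0.000177). Creb3l1, a transcription factor for collagen genes, rose by 1.52 in WT and was lower by 2.36 at day 6 (adjusted p = 1.23e-05). The prolyl 4-hydroxylase chains P4ha1 and P4ha2 were lower at day 6 by 1.23 and 1.69. P3h2, a prolyl 3-hydroxylase that acts on type IV collagen, rose in both genotypes, by 4.69 and 4.03.

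Outside the cell, of 12 tested genes for procollagen processing and cross-linking 5 rose and 5 fell in WT (41.7% each), 2 rose and 6 fell in Notch1-/- cells (16.7% and 50%), and 2 were higher and 6 lower in Notch1-/- embryoid bodies (16.7% and 50%). The shares of 16.7% are near those of all loci. Lox, which cross-links fibrils, fell from 217 ± 20.7 to 1.32 ± 0.567 CPM in WT and from 210 ± 154 to 1.89 ± 0.670 CPM in Notch1-/- libraries (-7.36 and -6.79, adjusted p = 4.06e-06 and 1.1e-05). Col1a1 was not called over the same days in WT (0.54). Adamts2, which cuts the N-terminal end from procollagens I, II and III, was at 117 ± 7.14 CPM in WT and 2.58 ± 0.442 CPM in Notch1-/- libraries at day 6 (-5.50, SE 0.53, adjusted p = 1.9e-05), and its changes differed by -4.45. Pxdn, peroxidasin, which cross-links type IV collagen, rose by 2.08 in WT and by 1.58 in Notch1-/- cells. Adamts3, another procollagen N-proteinase, rose by 3.63 and 3.18. Loxl1 was lower in Notch1-/- libraries at day 6 by 3.00, and Pcolce2, which speeds removal of the C-terminal end, was higher by 2.05.

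Of 10 tested fibril-binding proteoglycans and fibril regulators 6 fell in WT (60%), 2 rose and 7 fell in Notch1-/- cells (20% and 70%), and 1 was lower in Notch1-/- embryoid bodies (10%, under the share of all loci), with the others not called. Prelp (-6.96), Bgn (-6.25) and Fmod (-5.62) fell in WT and by 4.66, 5.72 and 5.01 in Notch1-/- cells, where Fmod was not called by limma on log2(FPKM + 1) (-0.50, adjusted p = 0.133). Lum, lumican, was the one that was lower at day 6 (-5.18, SE 0.88, adjusted p = 0.000988), though not with limma on log2(FPKM + 1) (-1.34, adjusted p = 0.0563). Of 4 tested collagenases and gelatinases 2 rose and 1 fell in WT (50% and 25%), 2 fell in Notch1-/- cells (50%), and 1 was higher and 2 lower at day 6 (25% and 50%). Mmp13, a collagenase, fell from 57.2 ± 58.5 to 0.325 ± 0.178 CPM in WT and from 188 ± 105 to 1.56 ± 0.351 CPM in Notch1-/- libraries. The gelatinases Mmp2 and Mmp9 were lower in Notch1-/- embryoid bodies by 1.53 and 1.65.

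Of 8 tested collagen receptors 3 fell in WT (37.5%), 4 fell in Notch1-/- cells (50%), and 1 was higher and 4 lower at day 6 (12.5%, near the share of all loci, and 50%). Ddr2, a receptor kinase for fibrillar collagen, fell by 2.62 in WT and by 4.73 in Notch1-/- cells, but its locus shares 50.54% of its exon length. Itga11, an integrin for fibrillar collagen, fell by 3.61 and 2.31, the second lost by limma on log2(FPKM + 1) without the filter (-1.01, adjusted p = 0.0505). Of 10 tested basement membrane partners 2 rose and 1 fell in WT (20% and 10%, near and under the shares of all loci), 6 fell in Notch1-/- cells (60%), and 5 were lower in Notch1-/- libraries at day 6 (50%), with the others not called. Nid1, which links laminin to type IV collagen, was at 286 ± 32.2 CPM in WT and 69.6 ± 3.51 CPM in Notch1-/- libraries at day 6 (-2.04, SE 0.24, adjusted p = 8.66e-05). Lama4, a laminin chain of vessels, was lower by 3.46 (SE 0.42, adjusted p = 9.85e-05).

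Of 7 tested regulators of collagen genes 4 rose and 3 fell in WT (57.1% and 42.9%), 2 rose and 4 fell in Notch1-/- cells (28.6% and 57.1%), and 5 were lower and 2 not called in Notch1-/- libraries at day 6 (71.4% lower). Tgfb2, a ligand that induces matrix genes, rose from 8.18 ± 1.89 to 296 ± 26.8 CPM in WT and was at 11.4 ± 6.53 CPM in Notch1-/- libraries at day 6 (-4.70, SE 0.36, adjusted p = 3.98e-06). Sox9, which drives Col2a1 in cartilage, rose from 4.26 ± 2.04 to 25.3 ± 5.09 CPM in WT and was at 4.15 ± 1.17 CPM in Notch1-/- libraries at day 6 (-2.61, SE 0.47, adjusted p = 0.00142). Its partners Sox5 and Sox6 were lower by 4.51 and 1.13. Col2a1 itself was not called between genotypes at day 6 (0.46, SE 0.27).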

How the data were processed

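Poly(A) RNA libraries were sequenced as paired reads of 100 bases. The authors deposited whole-number counts per locus and FPKM per locus for 12 libraries. Per the submitters' processing notes HTSeq 0.5.4p3, DESeq, TopHat2 2.0.8 and Cufflinks 2.1.1 were used on build mm9. Their roles, order and strand setting: not given in the sources used here. Loci carried no gene names. They were linked to GENCODE vM21 genes by the lengths of consecutive exons and introns (at least 2 links), which named 15884 loci with 1 gene, and 36 loci matched when looked up on another chromosome. Positions are those of the deposited files (mm9). Promoters came from RefSeq on GRCm38.p6, and no protein sequences were used.

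Counts were tested with edgeR 4.0.16 in R 4.3.3 (TMM scaling, filterByExpr, 23991 loci, 1 mean per group over all 12 libraries, quasi-likelihood test, Benjamini-Hochberg adjusted p under 0.05), after the code was tested on simulated data. Alternatives were upper quartile scaling, no filter, a replicate block, leaving out loci that share at least 50% of their exons, limma 3.58.1 on log2(FPKM + 1) or log2(FPKM + 0.1), 2 groups alone, DESeq2 1.42.0 and each library left out. Deviations of libraries with the same number correlated between genotypes at day 0 (r = 0.432, 0.317 and 0.251). The main test did not pair libraries, and pairing by number entered only through the replicate block. The labels state no pairing. Values in every library are given for collagens with a mean of at least 1 FPKM in some group and a call, and partner genes were named from the up to 4 called genes with the smallest p per list and comparison. The members, lists and tests were chosen with earlier results of these data known.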

Additional observations from a re-analysis of the deposited data

Results flagged for a closer look

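The change from day 0 to day 6 differed between genotypes, by edgeR's test of the difference itself, for 9 collagens, and each passed at an adjusted p under 0.05. Towards a lower value in Notch1-/- cells the log2 differences were -3.13 for Col1a1, -4.64 for Col3a1, -1.75 for Col4a1, -1.46 for Col4a2, -2.34 for Col12a1 and -1.94 for Col14a1. Towards a higher value they were 1.49 for Col2a1, 1.23 for Col9a2 and 1.05 for Col9a3. With any 1 of the 12 libraries left out, Col1a1, Col3a1, Col4a1 and Col4a2 were still called, and the other 5 were lost without at least 1 library.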

How the results depend on the processing

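Of 82 called results on collagen genes over the 5 comparisons, 43 were called in the same direction under every alternative that gave a value, 39 were lost under at least 1 and 0 reversed direction. Under limma on log2(FPKM + 1) the numbers higher and lower in Notch1-/- cells at day 6 against day 0 were 5 and 11 (9 and 17 with edgeR), and without the filter 3 and 9. Calls lost on both log2(FPKM + 1) and log2(FPKM + 0.1) included Col1a2, Col6a1, Col9a3 and Col22a1 over 6 days in WT. They included Col5a1 and Col8a2 over 6 days in Notch1-/- cells. Between genotypes they included Col2a1, Col9a1 and Col13a1 at day 0 and Col6a1, Col8a1 and Col9a3 at day 6. For the difference of the changes they included Col2a1, Col9a2, Col9a3 and Col12a1. At day 0 the number lower in Notch1-/- libraries was 4 with edgeR, 7 with DESeq2, 1 under each limma setting and 1 with the 2 groups alone. With the replicate block it was 7, and the pairing of libraries changed no other count by over 1.5 times. At day 6 the number higher was 3 with edgeR, 0 and 1 under limma with pseudocounts of 1 and 0.1, 0 without the filter and 6 with the 2 groups alone. The number whose changes differed towards a higher value was 3 with edgeR and 0 under each limma setting. With each library left out, the numbers ran from 7 to 10 higher and 11 to 17 lower in WT, 7 to 9 and 14 to 18 in Notch1-/- cells, 0 to 0 and 1 to 14 at day 0, 1 to 4 and 13 to 16 at day 6, and 0 to 4 and 4 to 9 for the difference of the changes. Of 105 other called results, which include the named partner genes, 72 were called in the same direction under every alternative. Among these 105, 33 were lost under at least 1 alternative and 1 reversed direction. The difference of the changes of Ddr2 was -2.11 with edgeR and 0.54 under limma on log2(FPKM + 1), with or without the filter. The cause was not tested for any of these. Ratios of chains from CPM in place of FPKM were added after seeing the data, and the Col1a1 to Col1a2 change in WT was then 2.44 on the log2 scale (2.38 from FPKM). Depth limits Col4a3 and Col4a4, with 7 to 68 counts per library, and Col9a1 in Notch1-/- cells at day 0, with 1 to 6.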
